A study of Mus musculus with 4 samples.

Results

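Retinoic acid is a vitamin A derivative that diffuses between cells and acts inside the nucleus. ALDH1A enzymes make it from retinaldehyde, CYP26 enzymes oxidise and inactivate it, CRABP proteins bind it in the cytoplasm, and the receptors RARα, RARβ and RARγ bind DNA as partners of the RXR proteins. In the early limb bud, retinoic acid is associated with the proximal part next to the body wall, and Cyp26b1 in the distal mesenchyme keeps its level low there. The genes described here are 10 rows, chosen by gene symbol, of a table of 25239: the synthesis enzymes Aldh1a2 and Aldh1a3, the breakdown enzymes Cyp26a1, Cyp26b1 and Cyp26c1, the binding proteins Crabp1 and Crabp2, and the receptors Rara, Rarb and Rarg. All 10 symbols were found.

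RNA was sequenced from hindlimb bud cells of FVB mouse embryos at embryonic day 11.5. All embryos were labelled wild-type and carried a reporter at the H11 locus, in which a human ZRS enhancer with the 404G>A change and an hsp68 promoter drive mCherry. The ZRS is the limb enhancer of Shh. The anterior group (2 libraries) held mCherry-positive cells dissected from the anterior hindlimb, and the central group (2 libraries) held mCherry-negative cells dissected from its centre. Domain and reporter state therefore changed together and cannot be told apart, and embryos without the reporter were not analysed here. The labels do not say whether the libraries of a group came from separate embryos, so p-values measure only the spread between these libraries.

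The libraries held 30080925 to 33257383 counts. Of 14610 genes tested between the populations, 3351 (22.9%) passed the threshold of 0.05 on the Benjamini-Hochberg adjusted p of edgeR's quasi-likelihood fit, and such genes are referred to as called. Without anterior replicate 2 the number was 2009. The 6 limb mesenchyme markers were high in all 4 libraries, with summed levels of 2231 to 2430 CPM (counts per 1000000 counts, TMM-scaled). Of these, Prrx2 and Twist1 were called higher in anterior cells (3.75-fold and 1.77-fold) and Pdgfra was called lower (2.26-fold). Of the surface ectoderm markers, 9 of 10 were called lower in anterior cells (9.95 and 11.04 CPM summed against 53.0 and 170 in central cells), and myogenic markers in 7 of 7 (4.17 and 2.35 against 143 and 142 CPM), with Myog and Pax7 at 0 in both anterior libraries. Endothelial markers were lower in 5 of 8 (10.5 and 17.0 against 34.4 and 43.5 CPM), chondrogenic markers in 4 of 6 tested (412 and 301 against 1503 and 1190 CPM) and neural crest markers in 2 of 5 tested (14.8 and 10.9 against 29.2 and 24.4 CPM). Erythroid markers were higher in 7 of 7 tested (3292 and 8394 against 5.39 and 8.31 CPM). Of the markers tested, 6 of 10 for ectoderm, 5 of 7 myogenic, 2 of 8 endothelial and 1 of 5 neural crest ones passed the filter on low counts only through the central libraries, and 2 of 7 erythroid ones only through the anterior libraries, so these counts of calls carry that choice. The part of these cells in the results below was not tested. In sorted populations sequenced in bulk, fewer cells of a type and less RNA per cell cannot be told apart.

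Promoter sequences from RefSeq (GRCm38.p6) were found for 8 of the 10 genes, and are shown for 3 of them: Rarb and Cyp26a1, which hold a direct repeat of the receptor's half-site, and Cyp26b1, the most abundant breakdown enzyme, which does not. The search took pairs of half-sites spelled AGGTCA or GGGTCA, or with T as the third base, AGTTCA or GGTTCA, in any combination, on either strand, separated by 1, 2 or 5 bases, in the 250 bases before each annotated start. In the 12 windows of these 8 genes, a repeat was found for Rarb and Cyp26a1 and for none of the other genes, in both cases with 5 bases between the half-sites. Of 32851 RefSeq promoters, 0.0883% held a repeat with that spacing and 0.426% held one with any of the 3 spacings. The stretches are printed below, 5′ to 3′ on the gene's strand, with the half-sites in capitals.
Rarb: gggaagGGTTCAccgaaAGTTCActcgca
Cyp26a1: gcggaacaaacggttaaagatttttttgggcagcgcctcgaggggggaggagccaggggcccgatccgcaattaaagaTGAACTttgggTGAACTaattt
Cyp26b1: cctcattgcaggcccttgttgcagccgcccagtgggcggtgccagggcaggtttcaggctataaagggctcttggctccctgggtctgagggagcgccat
The Rarb stretch lies at chr14:16575507-16575535 on the minus strand. Its repeat runs from 53 to 37 bases before the RefSeq start. GENCODE annotates the stretch as 5′ UTR of 2 transcripts. The Cyp26a1 stretch, at chr19:37697698-37697797 on the plus strand, ends just before the first annotated exon, and its repeat is on the opposite strand, 32 to 16 bases before the RefSeq start. The Cyp26b1 stretch, at chr6:84593909-84594008 on the minus strand, also ends just before the first annotated exon and holds no such repeat, nor does the rest of its window. A match is a description of these letters only, and binding was not measured.

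Of the 10 genes, 8 passed the filter on low counts. Cyp26b1 and Crabp1 were called higher in anterior cells, and Rara, Rarb and Cyp26a1 were called lower. Rarg, Crabp2 and Aldh1a2 were not called, and Aldh1a3 and Cyp26c1 had too few counts to be tested. Among all tested genes, 10.7% were called higher and 12.3% lower. Cyp26a1 passed the filter only through the central libraries, so the count of genes called carries that choice.

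**Figure D1:**
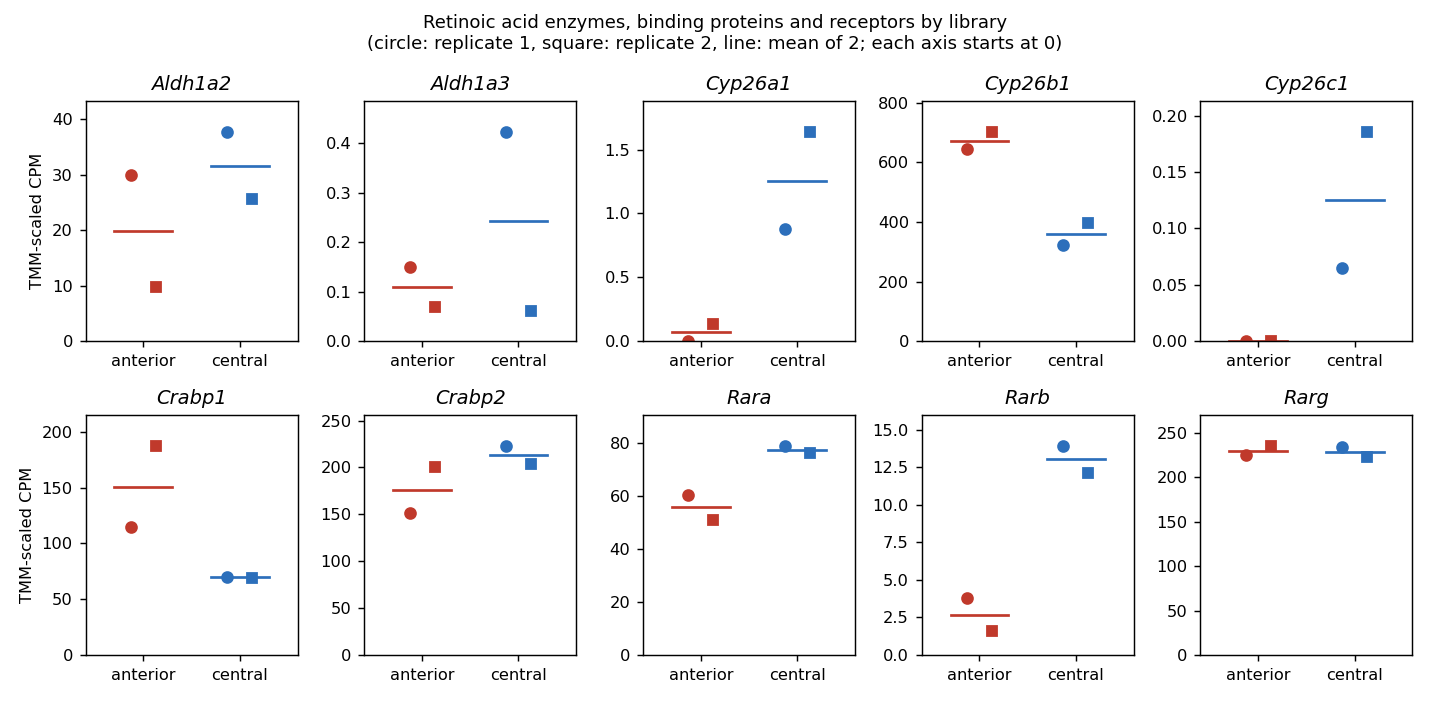
TMM-scaled CPM (vertical axes, each from 0) of the 10 genes in the 2 anterior (red) and 2 central (blue) libraries, with circles for replicate 1, squares for replicate 2 and lines for group means. Cyp26b1 and Crabp1 lie higher in both anterior libraries, Rara, Rarb and Cyp26a1 lie lower in both, and Aldh1a2 and Rarg overlap.

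Of the synthesis enzymes, Aldh1a2 (chr9:71215789-71296243), the main retinaldehyde dehydrogenase of the early embryo, gave nearly all counts. It measured 29.98 and 9.82 CPM in anterior replicates 1 and 2, and 37.7 and 25.6 in central ones. The higher anterior library lay between the central ones, so the groups overlapped, and the anterior replicates differed 3.03-fold. Gaps between replicates are given throughout as folds after 0.1 CPM was added to each value. The log2 fold change was -0.66 (SE 0.40; 95% interval, not adjusted for the number of genes, -1.58 to 0.26; adjusted p = 0.285 in edgeR). When anterior replicate 1 was left out, Aldh1a2 was called lower at a log2 fold change of -1.69 (adjusted p = 4.60e-05 in edgeR), and without central replicate 2 it was called at -0.91 (adjusted p = 0.0429 in edgeR). It was not called without anterior replicate 2, at -0.073 (adjusted p = 0.867 in edgeR), or without central replicate 1, at -0.36 (adjusted p = 0.537 in edgeR). Over all alternatives the adjusted p-value ranged from 4.60e-05 to 0.867. Aldh1a3 (chr7:66390890-66427517), a related enzyme, had 5 and 2 counts in anterior libraries and 13 and 2 in central ones. Aldh1a1, the third enzyme of the family, had 2 counts in 1 anterior library and 0 elsewhere. At this depth a difference in either gene was not detectable.

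Of the breakdown enzymes, Cyp26b1 (chr6:84571414-84593908) made up 98.8% to 100% of the summed CYP26 level per exon length in each library. Its levels were 645 and 702 CPM in anterior libraries and 321 and 398 in central ones, with no overlap. Expression was 1.87-fold higher in anterior cells (log2 fold change 0.90, SE 0.10; adjusted p = 0.000366 in edgeR). The call was kept under all 13 alternatives, with log2 fold changes of 0.76 to 1.07.

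The other CYP26 genes, neighbours on chromosome 19, were near the limit of detection. Cyp26a1 (chr19:37697798-37701536) had 0 and 4 counts in anterior libraries against 27 and 53 in central ones, or 0.0682 ± 0.0964 against 1.26 ± 0.538 CPM (SD, n = 2). It was called lower in anterior cells (log2 fold change -4.20, SE 0.96; adjusted p = 0.0145 in edgeR). That fold rests on 4 anterior counts, and it was -3.16 without anterior replicate 1. Without anterior replicate 2 the remaining anterior library had 0 counts, so no fitted fold is given. The call was lost without central replicate 2 (log2 fold change -3.67; adjusted p = 0.0511 in edgeR; lowest 0.00138 and highest 0.0511 among the alternatives). Central replicate 2, the library with more Cyp26a1, was also the one with the higher summed ectoderm level, 170 against 53.0 CPM, and the part of ectoderm in this result was not tested. Cyp26c1 (chr19:37685581-37693398) had 0 counts in both anterior libraries, which allows up to 3 counts or 0.0899 and 0.102 CPM, and 2 and 6 counts in central ones. No fold is given for it.

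Of the binding proteins, Crabp1 was called and Crabp2 was not. Crabp1 (chr9:54764748-54773110) measured 114 and 187 CPM in anterior libraries and 70.3 and 68.7 in central ones. Both anterior values lay above both central values, although the anterior replicates differed 1.64-fold. Crabp1 was 2.17-fold higher in anterior cells (log2 fold change 1.12, SE 0.19; adjusted p = 0.00336 in edgeR) and was called under all 13 alternatives, with log2 fold changes from 0.72 to 1.44.

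Crabp2 (chr3:87948666-87953376), which delivers retinoic acid to the receptors in the nucleus, measured 151 and 200 CPM in anterior libraries and 223 and 203 in central ones. The values nearly met between the groups but did not overlap. The log2 fold change was -0.28 (SE 0.12; unadjusted 95% interval -0.55 to -0.01; adjusted p = 0.129 in edgeR). Crabp2 was called lower without anterior replicate 2 (log2 fold change -0.49; adjusted p = 0.00829 in edgeR) and without central replicate 2 (-0.34, adjusted p-value 0.0178). The adjusted p-value over all alternatives ranged from 0.00829 to 0.667.

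Of the 3 receptors, Rarb and Rara were called lower in anterior cells and Rarg was not called. Rarb (chr14:16430839-16819156), itself a textbook target of retinoic acid, measured 3.78 and 1.602 CPM in anterior libraries and 13.9 and 12.1 in central ones, with a wide gap between the groups. It was 4.80-fold lower in anterior cells (log2 fold change -2.26, SE 0.34; adjusted p = 0.00204 in edgeR). The call was kept under all 13 alternatives, and the log2 fold change was -3.02 without anterior replicate 1 and -1.78 without anterior replicate 2. Rarb shares 1793 exon bases with Top2b and 227 with Gm48162, both on the other strand. The sources used here do not say whether counting used strand, so reads from the shared bases cannot be told apart. Top2b, named for this overlap, was at 580 and 586 CPM in anterior libraries and at 633 and 634 in central ones, and was not called (log2 fold change -0.12; adjusted p = 0.189 in edgeR).

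Rara (chr11:98927818-98974942) measured 60.5 and 51.0 CPM in anterior libraries and 79.0 and 76.3 in central ones, with no overlap. It was 1.39-fold lower in anterior cells (log2 fold change -0.48, SE 0.10; adjusted p = 0.00809 in edgeR). When anterior replicate 2 was left out, the call was lost at a log2 fold change of -0.35 (adjusted p = 0.0635 in edgeR; lowest 0.000475 and highest 0.0635 among the alternatives). Rarg (chr15:102234938-102257517) measured 225 and 235 CPM in anterior libraries and 234 and 223 in central ones. The groups overlapped fully, and the 95% interval of the log2 fold change was -0.13 to 0.15 (adjusted p = 0.929 in edgeR).

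**Figure D2:**
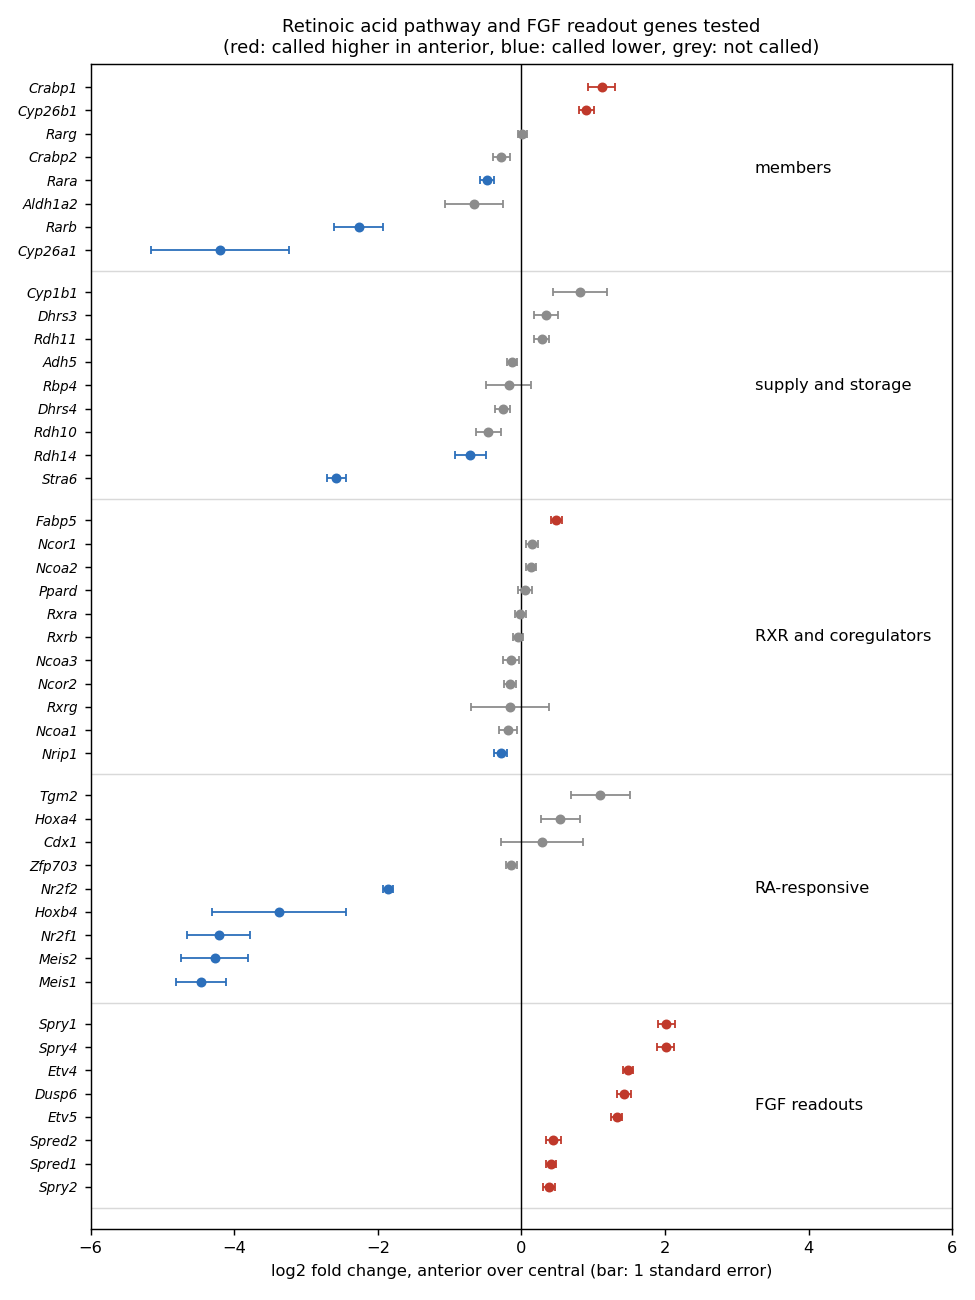
Log2 fold change of anterior over central cells (horizontal axis, bars of 1 standard error) for the tested genes of 5 groups, with called genes in red (higher in anterior) or blue (lower). Cyp26b1 and Crabp1 are the called members to the right of 0, and Stra6, Meis1, Meis2 and Nr2f1 lie far to the left.

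Levels were compared between genes per kilobase of GENCODE exon length, on the CPM scale, as a description. In anterior cells Crabp1 stood first at 188 ± 64.4 CPM per kb (SD, n = 2), followed by Crabp2 at 133 ± 26.2 and Cyp26b1 at 126 ± 7.48. The ranges of Crabp1 and Crabp2 overlapped, as did those of Crabp2 and Cyp26b1. Rarg followed at 54.0 ± 1.70, then Rara at 12.8 ± 1.54 and Aldh1a2 at 8.79 ± 6.30, whose ranges also overlapped, and Rarb at 0.511 ± 0.292.

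In central cells the order at the top was different. Crabp2 stood first at 161 ± 10.4 CPM per kb, then Crabp1 at 86.6 ± 1.43 and Cyp26b1 at 67.3 ± 10.2, with no overlap between neighbours. Rarg measured 53.7 ± 1.81, Rara 17.8 ± 0.436, Aldh1a2 14.0 ± 3.77, Rarb 2.48 ± 0.240 and Cyp26a1 0.634 ± 0.271. The lowest levels were those of Cyp26c1 and Aldh1a3, which overlapped. Exon length was taken over all annotated transcripts, and the transcripts in use were not measured. For Rarb the length includes the bases shared with Top2b and Gm48162, so its level per length is less certain.

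The proportions within each step follow from these levels. The ratio of Cyp26b1 to Aldh1a2, breakdown over synthesis on the CPM per kb scale, was 9.11 and 30.2 in anterior libraries and 3.61 and 6.57 in central ones. Both anterior ratios were above both central ones. The distance between the anterior libraries came mainly from Aldh1a2, which differed 3.03-fold between them against 1.09-fold for Cyp26b1 (0.1 CPM added to each value). The ratio of Crabp1 to Crabp2 was 1.25 and 1.54 in anterior libraries and 0.520 and 0.556 in central ones, so the more abundant binding protein per length was Crabp1 in anterior cells and Crabp2 in central cells. Rarg made up 78.4% and 82.2% of the summed receptor level in anterior libraries and 72.6% in each central one. Rarb made up 1.06% and 0.453% against 3.50% and 3.20%, with the limit from its shared exon bases given above. With 2 libraries per group an exact permutation test cannot reach a p-value under 0.05, and none is given for these ratios.

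**Figure D3:**
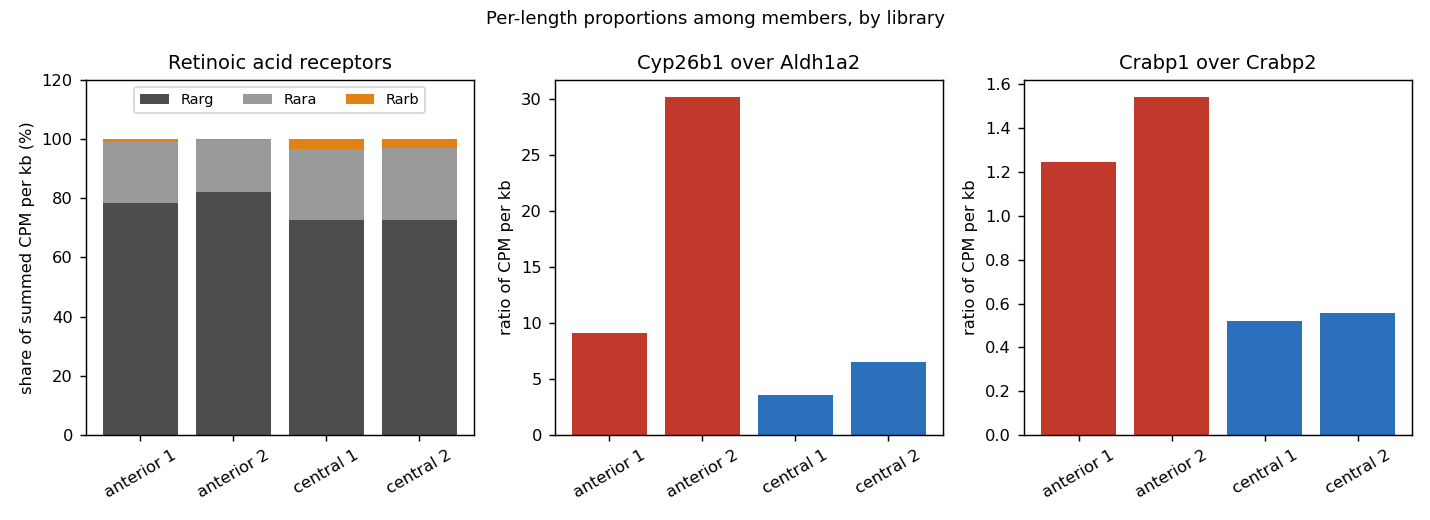
Shares of Rarg, Rara and Rarb in the summed receptor level (left, percent of CPM per kb) and the ratios of Cyp26b1 to Aldh1a2 (middle) and of Crabp1 to Crabp2 (right), 1 bar for each library and every axis from 0. Both ratios are higher in the anterior libraries, and anterior replicate 2 has the highest ratio of Cyp26b1 to Aldh1a2, at 30.2.

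Of 16 other genes of retinoid supply and storage, 9 were tested, of which 2 were called lower in anterior cells and 0 higher. That share was near the background, since 22.9% of all tested genes were called, 12.3% lower and 10.7% higher. The median log2 fold change was -0.18, against -0.0087 over all tested genes. Stra6, the cell surface receptor that takes up retinol from its carrier protein, measured 16.3 and 11.999 CPM in anterior libraries and 81.9 and 87.6 in central ones. It was 5.97-fold lower in anterior cells (log2 fold change -2.58, SE 0.14; adjusted p = 6.25e-06 in edgeR). The groups were well apart, and the call was kept under all 13 alternatives.

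Rdh14, a retinol dehydrogenase, was called lower close to the threshold (log2 fold change -0.71; adjusted p = 0.0454 in edgeR). The call was lost with the DESeq2 Wald test (adjusted p-value 0.0559), without anterior replicate 1 (0.169), without anterior replicate 2 (0.102) and without central replicate 1 (0.154); lowest 0.0312 and highest 0.169 among the alternatives. Rdh10, which makes retinaldehyde from retinol, measured 8.16 and 7.87 CPM against 11.9 and 10.1 and was not called (log2 fold change -0.46; adjusted p = 0.101 in edgeR). Dhrs3, which turns retinaldehyde back to retinol, measured 14.1 and 16.4 CPM against 13.4 and 10.6 and was not called either (log2 fold change 0.34; adjusted p = 0.189 in edgeR). The groups did not overlap for Rdh10 or Dhrs3, which was so for 63.5% of all tested genes. Rbp4, the retinol carrier of blood, overlapped at 3.24 and 5.18 CPM against 5.58 and 3.92 (adjusted p = 0.738 in edgeR).

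Of 11 receptor partners and coregulators, all tested, 1 was called higher and 1 lower, a share near the 22.9% called over all genes. The median log2 fold change was -0.049. Rxra measured 108 and 112 CPM in anterior libraries against 106 and 116 in central ones, with a 95% interval of the log2 fold change of -0.18 to 0.15 (adjusted p = 0.911 in edgeR). Rxrb measured 68.3 and 69.6 CPM against 72.2 and 70.4, with an interval of -0.22 to 0.12 (adjusted p = 0.690 in edgeR). Rxrg was low, at 1.11 ± 0.642 against 1.24 ± 0.357 CPM (SD, n = 2; edgeR adjusted p-value 0.863).

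Per length, Rxra and Rxrb took nearly all of the summed RXR level in every library. Fabp5, a fatty acid binding protein that can also carry retinoic acid, measured 128 and 144 CPM against 97.4 and 97.1 and was called higher (log2 fold change 0.48, SE 0.08; adjusted p = 0.00238 in edgeR). Nrip1, a nuclear receptor corepressor, was called lower at a log2 fold change of -0.29 (adjusted p = 0.0431 in edgeR). That call was lost with the DESeq2 Wald test (adjusted p-value 0.0580), without anterior replicate 1 (0.205), without anterior replicate 2 (0.129) and without central replicate 2 (0.143); lowest 0.0172 and highest 0.205 among the alternatives.

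Genes known to respond to retinoic acid in embryos were given by 11 genes, of which 9 were tested. In anterior cells 5 were called lower and 0 higher, where 12.3% of all tested genes were called lower. The list was chosen with earlier results of these data known. The median log2 fold change was -1.86. Hoxb4, 1 of the 5, passed the filter only through the central libraries, at 9 and 0 counts against 60 and 34. Meis1 and Meis2, homeobox genes of the proximal limb, measured 5.996 and 1.77 CPM against 95.04 and 79.9, and 11.03 and 2.05 against 128 and 131. In edgeR their log2 fold changes were -4.46 (SE 0.35; adjusted p = 4.86e-05) and -4.27 (SE 0.46; adjusted p = 0.000329). Without anterior replicate 1 these became -5.62 and -5.97, and without anterior replicate 2 they became -3.86 and -3.54.

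The orphan nuclear receptors Nr2f1 and Nr2f2 were lower by unequal amounts. Nr2f1 measured 4.95 and 0.920 CPM in anterior libraries against 56.8 and 55.4 in central ones (log2 fold change -4.22, SE 0.44; adjusted p = 0.000248 in edgeR, -5.92 without anterior replicate 1 and -3.50 without anterior replicate 2). Nr2f2 measured 43.95 and 43.7 CPM against 159.7 and 159.3, with almost no spread between replicates (log2 fold change -1.86, SE 0.07; adjusted p = 1.14e-06 in edgeR). The other tested members of the list, Hoxa4, Cdx1, Tgm2 and Zfp703, were not called. Stra8 was at 0 in every library, and Hoxb1 had too few counts to be tested.

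The anterior libraries differed from each other in some of these genes more than in most others. Gaps were taken as folds after 0.1 CPM was added to each value, which lowers them most for genes of low level. The median gap between the anterior replicates over all tested genes was 1.09-fold. Replicate 1 exceeded replicate 2 by 3.03-fold in Aldh1a2 and 2.28-fold in Rarb, at percentiles 98.3 and 96.4 of the absolute gaps. The same library was higher in Meis1 (3.26-fold), Meis2 (5.19-fold) and Nr2f1 (4.95-fold). Genes that went the other way included Crabp1, at 1.64-fold lower in replicate 1 (percentile 91.1), and Rxrg, at 2.20-fold lower (percentile 95.9). Cyp26a1 did so too, with 0 counts in replicate 1 and 4 in replicate 2 (percentile 96.8), so its gap depends on the added 0.1 CPM. Percentiles were taken over all tested genes whatever their level. Few counts alone can widen a gap, and Rxrg had 22 and 46 in the anterior libraries. Rarg, Cyp26b1 and Nr2f2 differed by 1.05-fold, 1.09-fold and 1.01-fold. Between the central replicates the gaps were 1.47-fold for Aldh1a2 and 1.146-fold for Rarb. These genes were picked out after their values were seen. The same libraries, replicate 1 first, held summed levels of 412 and 301 CPM for chondrogenic, 14.8 and 10.9 for neural crest and 4.17 and 2.35 for myogenic markers. Endothelial markers summed to 10.5 and 17.0 CPM and erythroid ones to 3292 and 8394. Surface ectoderm markers, at 9.95 and 11.04 CPM, and limb mesenchyme markers, at 2430 and 2379, differed little. The part of these cells in the gaps was not tested.

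**Figure D4:**
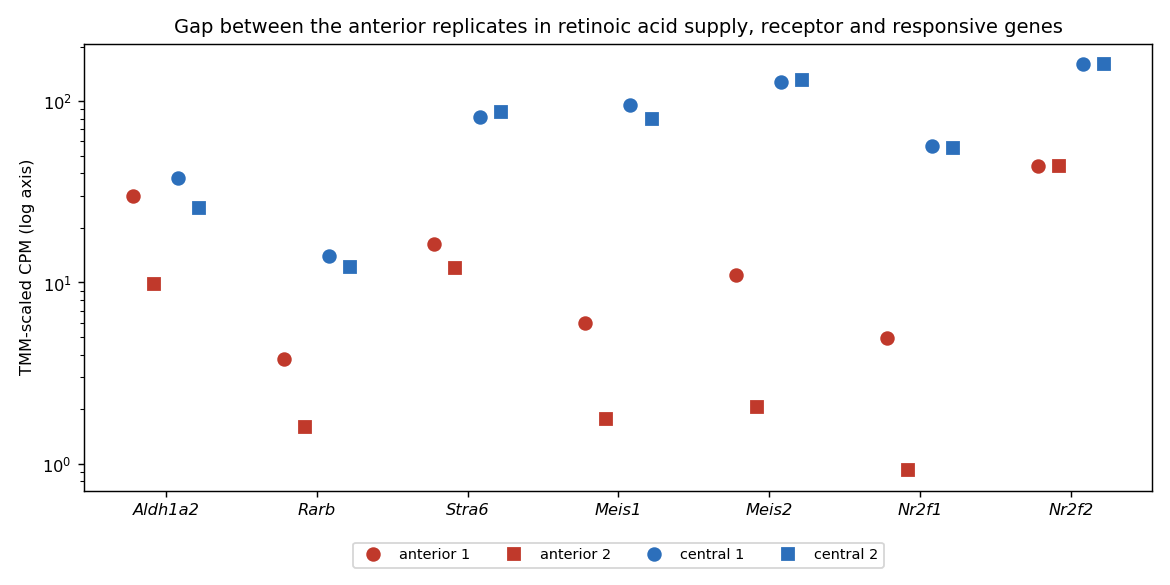
TMM-scaled CPM (log axis) of Aldh1a2, Rarb and 5 other genes of the lists in each library, with anterior in red, central in blue, circles for replicate 1 and squares for replicate 2. The anterior replicates are far apart in Aldh1a2, Meis1, Meis2 and Nr2f1 and close together in Nr2f2.

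Cyp26b1 is known to respond to FGF signals of the distal limb ridge, and readouts of FGF signalling were therefore set beside it. All 8 were called higher in anterior cells, where 10.7% of all tested genes were called higher, with a median log2 fold change of 1.38, and the list was chosen with results of these data known. Spry1, Spry4 and Dusp6, feedback inhibitors of the pathway, had log2 fold changes of 2.02, 2.01 and 1.43, and the ETS factor Etv4 had 1.48. The value for Cyp26b1, 0.90, lay below these and above those of Spry2, Spred1 and Spred2, at 0.39, 0.41 and 0.45. These differences between genes were not tested, nor was any part of FGF signals in the level of Cyp26b1.

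The genes nearest in pattern were found by the distance between log2 values of CPM plus 0.1 over the 4 libraries. Each gene was centred on its mean, and the candidates were 10598 genes with a mean of at least 5 CPM. Nearest to Cyp26b1 were Pawr, Spata13 and Pde10a, at distances of 0.0693, 0.102 and 0.121. Nearest to Rara were Grik5, Ppp1r21 and Rusc1, at 0.00939, 0.0373 and 0.0375. Of these, Rusc1 was not called (log2 fold change -0.46, adjusted p = 0.0763 in edgeR). Pde10a was called higher (log2 fold change 0.99; adjusted p = 0.0210 in edgeR), but not without anterior replicate 2 (0.94; adjusted p = 0.0783 in edgeR) or without central replicate 1 (0.79; adjusted p = 0.0602 in edgeR; lowest 0.00495 and highest 0.0783 among the alternatives). Ppp1r21 was called lower (log2 fold change -0.50; adjusted p = 0.0138 in edgeR), but not without anterior replicate 2 (-0.37; adjusted p = 0.101 in edgeR; lowest 0.00294 and highest 0.101 among the alternatives). With 4 libraries in 2 groups, such likeness reflects little more than a like fold change and a like gap between replicates.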

How the data were processed

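The authors deposited whole-number read counts per gene symbol, not normalized, for 4 libraries. Per the submitters' processing notes, STAR 2.7.9a, HTSeq, DESeq2 and the build mm10 were used, with no role given. Annotation and strandedness are not given in the sources used here. Per the labels, cells were sorted and libraries were paired-end sequenced by a commercial provider. Between 72.8% and 75.6% of counts from 1 to 10 were even numbers, so counts may overstate fragments, and halved counts were run as an alternative.

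Columns were matched to samples by domain name and number in the titles. The differential test used edgeR 4.0.16 (R 4.3.3), with filterByExpr, TMM scaling, and the quasi-likelihood F test over 14610 genes with Benjamini-Hochberg adjustment, at 0.05. Standard errors are the absolute log2 fold change divided by the square root of F. Fits without 1 library assume that the lone library varies like the other group. Levels per length used GENCODE exon lengths (GRCm38, the assembly of mm10). Floors of 3 counts cover counting error only and assume that every count stands for a separate fragment.

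The genes and lists were chosen with earlier results of these data known. Named were the 10 genes, 10 further pathway genes, called list genes of at least 1 CPM (up to 4 in each direction and list) and nearest patterns. Some genes of the lists are not reported here. No synthesis enzyme was called, so none has nearest patterns. Alternatives were DESeq2 1.42.0 size factors and Wald test, limma-voom (limma 3.58.1), library size alone, upper-quartile factors, 2 other count filters, the replicate block, halved counts and leaving out each library. The code was tested on simulated counts.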

Additional observations from a re-analysis of the deposited data

How the results depend on the processing

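Of 32 named genes tested, 20 had the same sign and the same call under all alternatives in which they had a value, among them Cyp26b1, Crabp1, Rarb, Stra6, Meis1, Meis2, Nr2f1 and Nr2f2. Of the 8 retinoic acid genes tested, 5 were called, against 22.9% of all tested genes. Across the alternatives that kept all 4 libraries, 4 to 6 were called. The number tested moved from 7 (mean count of at least 50) to 10 (no filter beyond 1 count). In the same alternatives 20.7% to 24.5% of all tested genes were called. Calls that single libraries made or ended are given beside each gene. Crabp2 was also called without a filter on low counts (edgeR adjusted p-value 0.0385). Cyp26a1 has no value at a mean count of at least 50. Leaving out 1 library, genes called in all ranged from 2009 (without anterior replicate 2) to 3697 (without central replicate 2), against 3351. The changes of sign were in genes near 0 that were not called: Rarg fell to -0.0215 with library size alone, -0.0278 with upper-quartile factors and -0.0047 at a mean count of at least 50, and across fits without 1 library it ranged from -0.0220 to 0.0469, Rbp4 from -0.547 to 0.128, Rxra from -0.0758 to 0.0544 and Rxrg from -0.901 to 0.341. The cause was not tested.

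Replicate numbers occur in both groups, but no label says that a number marks a shared litter or day, and the replicate differences of the groups correlated at 0.049 (Pearson) across genes, which are not independent replicates. With the replicate block 3586 genes (24.5% of those tested) and 6 of the 8 retinoic acid genes tested were called. The sixth was Aldh1a2, with a log2 fold change of -0.82 and an edgeR adjusted p-value of 0.0097; lowest 4.60e-05 and highest 0.867 among the alternatives. With the block, 17 of 37 other listed genes were called, as without it, where 24.5% and 22.9% of all tested genes were called. The 17 included all 8 FGF readouts, a list chosen with results of these data known. Depth limits Aldh1a3, Cyp26c1 and Cyp26a1, which had at most 53 counts in any library.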
